A study of Mus musculus with 2 samples.

Results

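The genes described here are the histone genes of the mouse, read on 2 microarrays of BCR-ABL-expressing Ba/F3 cells. Members were the probe sets that named a single gene with a symbol beginning H1f, H2ac, H2bc, H3c or H4c and a digit, or with the older form Hist and a digit. Where a gene had several probe sets, the rule kept the set whose mean over the arrays was highest. This gave 30 of 19935 genes, namely 8 genes of the linker histone H1, 4 of H2A, 9 of H2B, 3 of H3 and 6 of H4. None of the 30 had more than 1 probe set of its own. The working name of the group, replication-dependent histone genes, holds for 24 of them. The symbol pattern also takes H1f6, H1f7 and H1f8, linker histones known from germ cells, H1f10, a linker histone made outside S phase, and the testis genes H2ac1 and H2bc1.

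Ba/F3 cells are an established mouse haematopoietic line that depends on the cytokine interleukin-3 (IL-3) for growth. BCR-ABL, the oncogenic kinase found in chronic myeloid leukaemia, lets them grow without it. Both groups were Ba/F3 cells with constitutive BCR-ABL, kept in medium with 10% serum and given the ABL kinase inhibitor imatinib at 5 µM for 6 h, and both titles call the cells live, without saying how live cells were chosen. The first group was grown with IL-3, which the submitters describe as resistant to imatinib, and the second without IL-3, described as sensitive and dying by apoptosis. Each group had 1 array, so no difference below has a replicate error or a test, and precision is limited by there being 2 arrays in all. The labels disagree with themselves: the array titled with IL-3 has a description that says without it, and the source name of the other array can be read as without imatinib. Directions here follow the titles, and with the titles exchanged every sign would turn. If the other array had no imatinib, the arrays would differ in imatinib as well, and no difference could be assigned to IL-3. The deposited values were log values, taken as log2, expressed against a baseline set for every probe set, so that 0 is the baseline and no value is an expression level. For that reason neither the cell type nor the presence of a transcript could be checked, and a gene whose probe set hardly responds cannot be told from one whose expression was alike on both arrays.

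Replication-dependent histone genes supply the core histones H2A, H2B, H3 and H4 and the linker histones H1 while DNA is copied. Their mRNAs normally carry no poly(A) tail and end in a stem-loop that is bound by SLBP, and they are made in S phase and broken down when replication stops. The genes lie in clusters and have many near-identical copies, and several of them are known to give polyadenylated mRNA as well in cells that leave the cell cycle. The labels name a whole-transcript labelling kit, a kind that does not depend on a poly(A) tail.

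The histone genes did not move as a group. In 4 genes, the linker histone gene H1f2, the H3 gene H3c4 and the H2B genes H2bc4 and H2bc8, the value with IL-3 was 2.55-fold to 3.39-fold below that without IL-3. The other 26 genes lay between -0.51 and 0.46 in the log2 difference, always the value with IL-3 minus the value without it. None of the 30 was 2-fold higher with IL-3. The 4 genes make 13.3% of the members, against 0.657% of all genes with a difference that low. A value 2-fold or more above that without IL-3 was found in 0.441% of all genes. That background itself depends on the scaling, with 131 genes lower and 88 higher as deposited and 205 lower and 29 higher after a loess trend was subtracted, while the 4 histone genes were past 2-fold on either scale. The median difference of the 30 genes was -0.06, against 0.04 over all genes, and 16 of 30 (53.3%) lay below 0, against 40.1% of all genes.

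**Figure D1:**
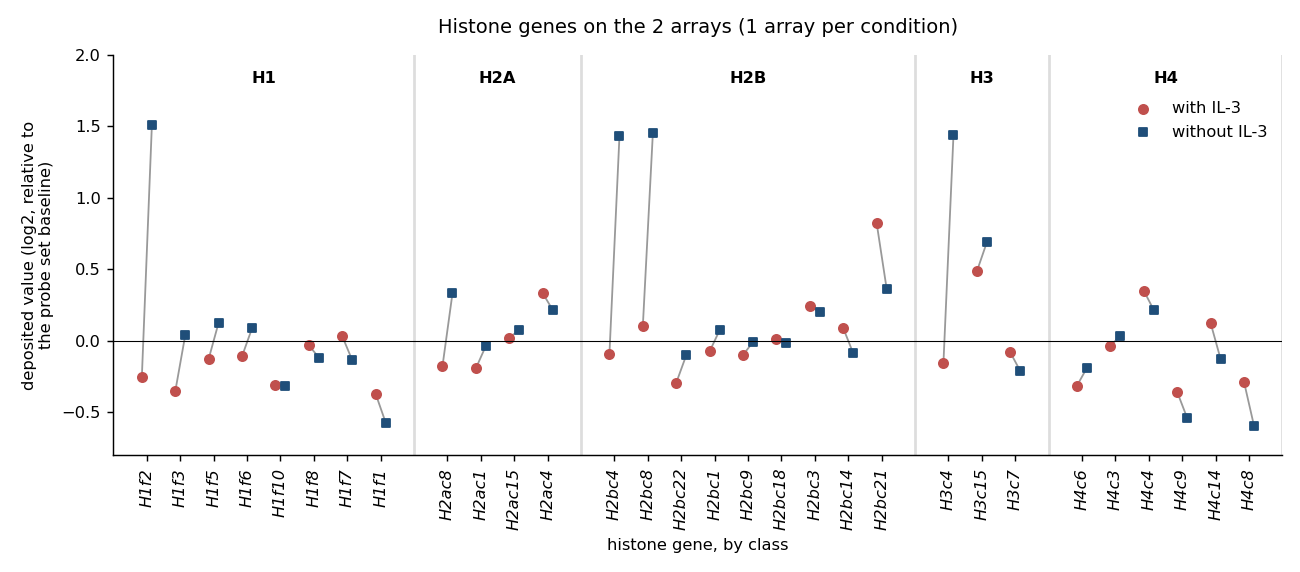
Deposited log2 value of each of the 30 histone genes, relative to its baseline (vertical axis), by class (horizontal axis), with the array with IL-3 as red circles and the array without IL-3 as blue squares, joined per gene. H1f2, H2bc4, H2bc8 and H3c4 reach 1.43 to 1.51 without IL-3, and the remaining pairs differ by -0.51 to 0.46, with IL-3 minus without IL-3.

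Relative to the baseline, these 4 genes lay apart from the other members on the array without IL-3. The arrays behind the baseline are not analysed here, so the difference cannot be assigned to 1 of the 2 arrays. Their values there were 1.43 to 1.51 above the baseline, whereas with IL-3 they were -0.25 to 0.10, near the baseline. The highest value of any other histone gene without IL-3 was 0.69. Of all genes, 0.306% (61 of 19935) had a value without IL-3 at least as high as the lowest of the 4. The 4 were picked by their difference, so a high value there is partly built in. By the size of the fall with IL-3, H1f2 ranked 25, H3c4 29, H2bc4 35 and H2bc8 55 among the 19935 genes. H2bc8, the member just past 2-fold, differed by -1.35 and H2ac8, the member just inside it, by -0.51.

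**Figure D2:**
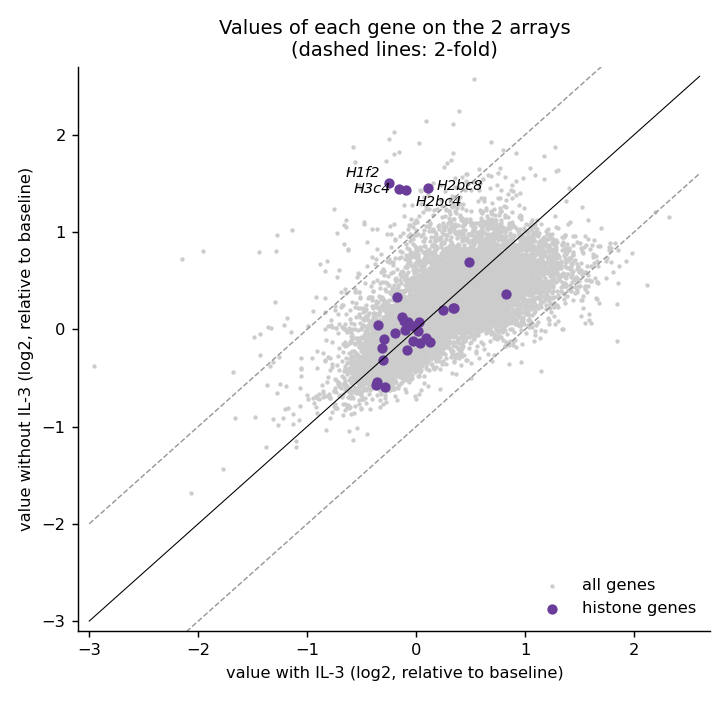
Value of every gene with IL-3 (horizontal axis) and without IL-3 (vertical axis), both log2 relative to the baseline, with the 30 histone genes in purple and the dashed lines at 2-fold. The 4 named histone genes sit above the upper dashed line at 1.43 to 1.51 without IL-3, and the other 26 lie between the dashed lines.

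Among the linker histone genes, which encode the proteins that bind the DNA entering and leaving the nucleosome, H1f2 (probe set 10404059) had a value of -0.25 with IL-3, against 1.51 without IL-3. This was a 3.39-fold lower value with IL-3, a log2 difference of -1.76. H1f3 (-0.35 with IL-3, 0.04 without) differed by -0.39. H1f5 (-0.13 with IL-3, 0.13 without) differed by -0.26. H1f1 (-0.37 with IL-3, -0.57 without) went the other way, with a difference of 0.20. Of these 4 replication-dependent H1 genes, only H1f2 passed 2-fold. Of the genes outside replication-dependent expression, the germ cell genes H1f6 and H1f8 differed by -0.20 and 0.09, the testis gene H1f7 by 0.17 and H1f10 by 0.00. Over the 8 H1 genes the median difference was -0.10, with 4 below 0 and 4 above.

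The promoters of these linker histone genes are shown because they hold like motifs beside unlike differences. Each line gives the 150 bases before the annotated start in the RefSeq promoter table of GRCm38.p6, in the gene's own direction, not the sequence of Ba/F3 cells. Capitals mark AAACACA, the element known from H1 promoters, CCAAT, the letters bound by NF-Y (both searched on both strands), and TATANA, where N is any base and the search was on the sense strand. Neighbouring TATANA matches overlap. H1f2 is at chr13:23738657-23738806 on the plus strand, H1f3 at chr13:23554882-23555031 on the plus strand, H1f5 at chr13:21780626-21780775 on the minus strand and H1f1 at chr13:23763518-23763667 on the plus strand.
H1f2: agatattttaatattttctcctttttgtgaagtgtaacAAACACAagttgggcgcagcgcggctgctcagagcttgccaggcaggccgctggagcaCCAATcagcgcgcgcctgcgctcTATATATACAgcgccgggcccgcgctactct
H1f3: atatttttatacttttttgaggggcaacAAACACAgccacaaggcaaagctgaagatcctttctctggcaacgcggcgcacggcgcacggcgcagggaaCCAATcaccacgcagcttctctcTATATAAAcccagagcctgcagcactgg
H1f5: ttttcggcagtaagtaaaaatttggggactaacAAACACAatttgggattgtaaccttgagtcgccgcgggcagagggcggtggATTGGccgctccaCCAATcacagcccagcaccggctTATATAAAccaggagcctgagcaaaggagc
H1f1: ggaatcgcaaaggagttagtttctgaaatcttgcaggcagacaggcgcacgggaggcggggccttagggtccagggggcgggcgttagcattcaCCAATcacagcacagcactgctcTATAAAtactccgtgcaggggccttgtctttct
All 4 windows held CCAAT and TATANA. The H1 element AAACACA was found in those of H1f2, H1f3 and H1f5, where it began 112, 122 and 117 bases before the start, and not in that of H1f1. The windows of H1f2 at -1.76 and of H1f3 at -0.39 held the same 3 kinds of match. These are matches of letters, not measured binding sites.

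The H2B genes, which encode a core histone, had 9 members, the most of any class, and 2 of them passed 2-fold. H2bc4 (probe set 10404053) had a value of -0.09 with IL-3, against 1.43 without IL-3, a 2.87-fold lower value with IL-3. H2bc8 (probe set 10404036) had a value of 0.10 with IL-3, against 1.45 without IL-3, a 2.55-fold lower value with IL-3. The other 7 H2B genes stayed within 2-fold. H2bc21 stood at the opposite end, with 0.82 with IL-3 and 0.36 without IL-3, which is 1.38-fold higher with IL-3 and the highest difference of all 30 genes. Between them lay H2bc22 at -0.19, the testis gene H2bc1 at -0.15, H2bc9 at -0.09, H2bc18 at 0.03, H2bc3 at 0.04 and H2bc14 at 0.18. The class median was -0.09.

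H2A and H2B genes often lie head to head with a shared stretch of promoter, and H2bc8 has this arrangement with the H2A gene H2ac8. H2ac8 had a value of -0.18 with IL-3, against 0.33 without IL-3, a difference of -0.51 that is the lowest of any H2A gene and the fifth lowest of all 30 genes. The remaining H2A genes were H2ac1 at -0.16, H2ac15 at -0.05 and H2ac4, with 0.33 with IL-3 and 0.22 without IL-3, at 0.12. The class median was -0.10. The 179 bases between the 2 starts are printed in the direction of H2bc8, at chr13:23571221-23571399 on the plus strand of GRCm38.p6. Below them stand, for comparison, the 150 bases before the start of H2bc3, an H2B gene that differed by 0.04, at chr13:23746584-23746733 on the plus strand. Capitals mark CCAAT and ATTTGCAT, the octamer known from H2B promoters, on both strands, and TATANA on the sense strand.
H2bc8: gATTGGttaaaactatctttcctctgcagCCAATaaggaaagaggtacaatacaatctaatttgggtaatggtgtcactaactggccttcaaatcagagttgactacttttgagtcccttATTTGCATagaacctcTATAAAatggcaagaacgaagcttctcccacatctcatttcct
H2bc3: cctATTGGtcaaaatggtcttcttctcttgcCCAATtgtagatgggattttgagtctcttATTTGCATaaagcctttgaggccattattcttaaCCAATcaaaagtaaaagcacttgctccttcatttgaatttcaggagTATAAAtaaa
The octamer began 59 bases before the start of H2bc8 and 90 bases before that of H2bc3. TATANA began 43 bases before the start of H2bc8 and 10 bases before that of H2bc3. Both windows, of unlike length, held all 3 kinds of match, at unlike places. Whether these letters bear on the differences was not tested.

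For H3, the core histone whose tail carries many regulatory marks, 3 genes had a probe set of their own. H3c4 (probe set 10404038) had a value of -0.15 with IL-3, against 1.44 without IL-3, a 3.01-fold lower value with IL-3. H3c15 (0.49 with IL-3, 0.69 without) differed by -0.20 and H3c7 (-0.08 with IL-3, -0.21 without) by 0.13. The platform annotation listed the probe sets of H1f2, H3c4 and H3c15 with cDNA clones and no RefSeq transcript, whereas each of the other 27 members had a RefSeq transcript. The 150 bases before the start of H3c4, at chr13:23575613-23575762 on the plus strand of GRCm38.p6, are printed with CCAAT and TATANA in capitals, as the remaining gene past 2-fold with an entry in the table.
H3c4: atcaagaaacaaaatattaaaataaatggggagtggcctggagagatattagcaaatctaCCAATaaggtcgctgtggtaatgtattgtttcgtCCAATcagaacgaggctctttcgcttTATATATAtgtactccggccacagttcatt
CCAAT occurred at 2 places in this window, beginning 90 and 56 bases before the start.

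The 6 H4 genes, which encode the core histone that pairs with H3, were the class with the highest median difference, at 0.16. H4c8 was highest (-0.29 with IL-3, -0.60 without), with a difference of 0.31. H4c14 differed by 0.25, H4c9 by 0.18 and H4c4 by 0.14. H4c3 differed by -0.07, and H4c6 (-0.31 with IL-3, -0.19 without) was lowest at -0.13. None of the 6 reached 1.5-fold in either direction. Over all 30 members, the 4 genes past 2-fold were also those that reached 1.5-fold with the values taken as log2, which is 13.3% against 6.23% of all genes. With the values taken as natural logs, H2ac8 and H2bc21 passed 1.5-fold too, making 6. That scale widens every difference, with 375 of all genes at least 2-fold lower and 419 higher. The share of all genes past 1.5-fold was not counted on it, so the 6 have no background. Probe sets of the same gene differed with a pooled SD of 0.14, taken over 998 genes measured more than once, and 11 of the 30 members (36.7%) lay within that SD of 0, against 55.9% of all genes. That SD covers measurement within these 2 arrays alone.

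A further 26 probe sets named several genes that included histone genes of the pattern, and they cover 36 more genes that have no probe set of their own. They are not members. Of these sets, 24 named 11 to 20 genes at once. The 10 sets for H3, each naming 12 genes, gave 0.05 to 0.13 with IL-3 and -0.03 to 0.01 without IL-3, and all 10 differences were above 0, at 0.06 to 0.15. H3c4 was among the 12 genes they name, although its own probe set differed by -1.59. The 5 sets for H4 differed by 0.06 to 0.09 and the 2 sets for H2A, which also name H3c4, by 0.09. All 7 sets for H2B differed below 0, by -0.18 to -0.09. Each of the 7 names H2bc4 and H2bc8, although their own probe sets differed by -1.52 and -1.35. The sets of a class name nearly the same genes, so they are not independent measurements. The probe set naming H2bc6 and H1f4 together differed by -0.19, and that naming H4c17 and H4c11 by 0.05.

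**Figure D3:**
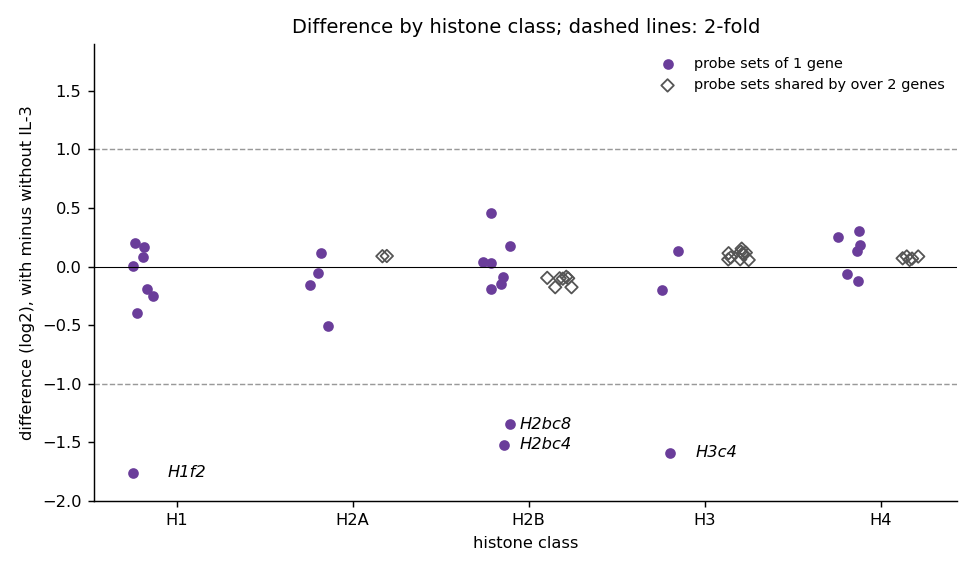
Log2 difference with IL-3 minus without IL-3 (vertical axis) by histone class (horizontal axis), for probe sets naming 1 gene (purple points) and for those shared by over 2 genes (open diamonds). All shared sets lie between -0.18 and 0.15, and only the 4 named single-gene sets pass the dashed line at -1.

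All 4 genes past 2-fold lie in the large histone cluster of chromosome 13, which holds 23 of the 30 members. In the order of protein-coding genes of GRCm38.p6, H2ac8, H2bc8, H2bc7, H2ac7, H3c4 and H4c4 follow each other without another gene between them. Of these, H2ac8 differed by -0.51, H2bc8 by -1.35, H3c4 by -1.59 and H4c4, the next gene after H3c4, by 0.14, whereas H2bc7 and H2ac7 had no probe set of their own. H2bc4 follows the H2A gene H2ac6, which had none either, and precedes H1f6 at -0.20. H1f2 lies between Hfe, an iron metabolism gene inside the cluster that differed by 0.16, and H3c3, which had no probe set of its own. Between H2bc8 and H3c4 no gene was measured, whereas H4c4, H1f6, H4c3 and Hfe, all within 2-fold, lay among the 4 genes. The median over chromosome 13 was -0.13, with 15 of 23 genes below 0, against 40.1% of all genes. The 4 members on chromosome 3, H2bc21, H3c15, H4c14 and H2bc18, had a median of 0.14, with 1 of 4 below 0. Whether the chromosomes differ was not tested.

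**Figure D4:**
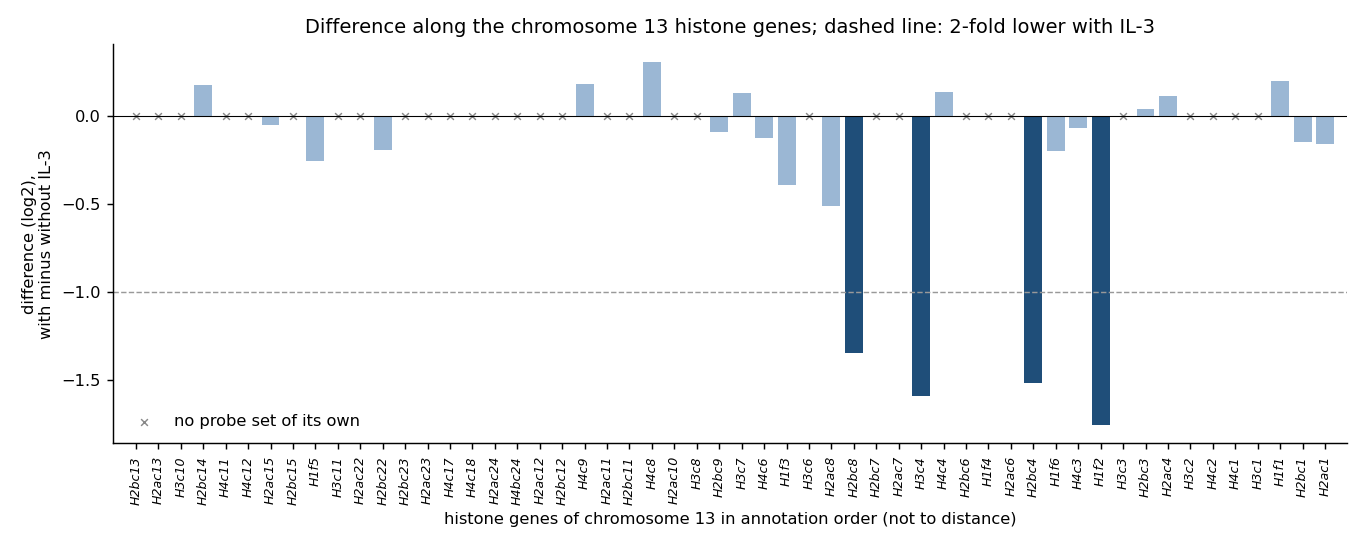
Log2 difference with IL-3 minus without IL-3 (vertical axis) for the histone genes of chromosome 13 in annotation order (horizontal axis, not to distance), with genes at least 2-fold lower in dark blue and crosses for genes with no probe set of their own. H2bc8 at -1.35 and H3c4 at -1.59 have no measured gene between them, with H2ac8 at -0.51 before and H4c4 at 0.14 after them, while H2bc4 and H1f2 stand further along.

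Promoter letters were counted over the 26 members with an entry in the promoter table, in the 150 bases before the start. H2bc4, H2bc21, H3c7 and H4c14 had no entry. CCAAT was in 20 of 26 members (76.9%), against 24.5% of all 32851 promoters in the table. TATANA was in 16 of 26 (61.5%), against 9.66%. The octamer ATTTGCAT was in 7 of 26 (26.9%), against 0.998%, and all 7 were H2A genes (3 of 4) or H2B genes (4 of 7). The matches of H2ac8 and H2bc8 are 1 shared octamer. AAACACA was in 7 of 26 (26.9%), against 3.53%, among them 4 of the 8 H1 genes. The 3 genes past 2-fold that had an entry all held CCAAT and TATANA, and so did many members near 0.

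Genes that act on histone mRNA and histone proteins were set beside the members. SLBP, which binds the stem-loop of histone mRNA, is encoded by Slbp, which had 0.46 with IL-3 and 0.20 without IL-3, a difference of 0.26. In its list of histone mRNA 3' end formation and decay, 14 of 16 measured genes were above 0, against 11940 of 19935 over all genes. The median was 0.26, and 0 passed 2-fold. Over all genes 0.657% were that much lower and 0.441% that much higher, so 0 in a list of this size is near those shares. Cstf2, a cleavage factor subunit, differed by 0.63, the cap-binding gene Ncbp1 by 0.60 and Lsm11, a component of the U7 particle that directs the cleavage, by 0.49. Among regulators of histone gene transcription, 9 of 11 measured genes were above 0 as deposited and 8 of 11 after loess. Their median was 0.21 as deposited, 0.11 after quantile normalization and 0.11 after loess. Npat, the coactivator of histone genes that cyclin E and CDK2 act on, differed by -0.07 and Cdk2 by 0.24. Ccne1, which encodes cyclin E1, was 2.33-fold higher with IL-3 (1.27 with IL-3, 0.05 without), the only member of that list past 2-fold. E2f4 and Ccne2 differed by 0.68 and 0.61, Hinfp, an activator of H4 genes, by 0.12 and Casp8ap2, which encodes the histone locus protein FLASH, by 0.08.

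Histone chaperone genes had 19 of 23 measured members above 0, against 11940 of 19935 over all genes. Their median was 0.49 and 0 members passed 2-fold, which is near the share over all genes. After a loess trend was subtracted the median was 0.26, with 17 of 23 above 0. Hat1, the acetyltransferase of newly made histone H4, differed by 0.89, Rbbp7, its partner, by 0.86 and Set by 0.77. The listed histone variant genes had a median of 0.03 as deposited and -0.0018 after loess, over 12 measured genes. Of these, H1f10 is also among the 30 members. Cenpa, the H3 variant of centromeres, differed by 0.55, Macroh2a1 by 0.43 and H2az1 by 0.37. None passed 2-fold, again near the share over all genes. The DNA replication genes, whose products copy the DNA that new histones package, had a median of 0.85. Of 35 measured members, 34 were above 0, against 11940 of 19935 over all genes. After loess the median was 0.67, with 31 of 35 above 0. As deposited, 11 of the 35 had at least 2-fold higher values with IL-3, against 7 after quantile normalization and 2 after loess. Over all 19935 genes these counts were 88, 62 and 29. The list was led by Rrm2, a subunit of ribonucleotide reductase, at 1.66, the helicase gene Gins1 at 1.54 and the thymidine kinase gene Tk1 at 1.21. Side by side, the medians were -0.06 for the 30 histone genes and 0.85 for the DNA replication genes, a difference that has no test with 1 array per group.

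**Figure D5:**
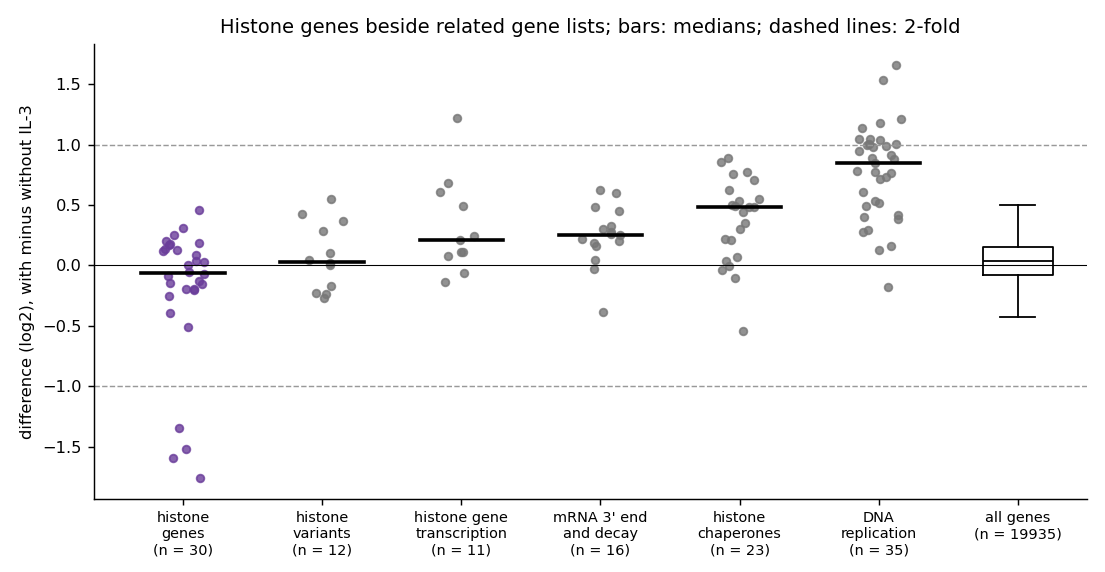
Log2 difference with IL-3 minus without IL-3 (vertical axis) for the histone genes and 5 related lists (horizontal axis), with a black bar at each median, dashed lines at 2-fold, and all genes as a box from the 25 to the 75 percentile with whiskers from the 5 to the 95 percentile. The medians lie at -0.06 for the histone genes, 0.49 for the chaperones and 0.85 for the DNA replication genes, as deposited; after loess the chaperone and DNA replication medians were 0.26 and 0.67.

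Some markers of other blood cells had differences past 2-fold, while most members of these lists stayed within it. Over all genes, 0.657% had a value with IL-3 at least 2-fold below that without IL-3. Of 10 mast cell and basophil markers, 3 had a value with IL-3 at least 2-fold below that without IL-3 (Fcer1a at -2.46, Cpa3 at -1.11 and Cma1 at -1.10), and 4 were above 0, with Tpsb2 highest at 0.19. The list had a median difference of -0.15 and a median value of -0.20 with IL-3, against 0.14 in its absence. Of 10 granulocyte markers, 4 had a value with IL-3 at least 2-fold below that without IL-3, with Ngp, Prg2 and Ear6 at -2.87, -2.76 and -2.24, and 3 were above 0, namely S100a9 at 0.38, Mpo at 0.17 and S100a8 at 0.16. The median difference was -0.09, and the median value was -0.23 with IL-3, against -0.02 in its absence. Of 4 erythroid markers, 1 was that low, the embryonic globin gene Hbb-y at -2.20, and Epor and Alas2 differed by -0.33 and -0.11. None of 12 B-lineage markers was that low, and at the share over all genes few or none would be. Cd79a, Cd79b and Vpreb2 were furthest from 0 at -0.35, -0.24 and 0.23. The median value of the 12 was -0.09 with IL-3, against -0.14 in its absence. With no expression level at hand, no marker can be called present or absent, and their part in the difference of the 4 histone genes was not tested.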

How the data were processed

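RNA from 2 samples was hybridised to 1-colour mouse Gene 1.0 ST arrays, per the labels' protocols. The authors deposited, for each of 28815 probe sets, 1 value per array, taken here as log2. The values themselves show a baseline per probe set, since in 1760 probe sets (6.11%) both values were equal and opposite within 1e-05. This held for 5 of the 30 histone genes (16.7%), against 6.03% of all genes. The arrays behind the baseline are not analysed here, and for the log base, summarisation and normalization no source used here gives a value. Column medians were -0.03 with IL-3 and -0.05 without IL-3.

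GEO's platform annotation supplied gene names, with 1 gene for 21780 probe sets. All 30 members were found in the RefSeq table of GRCm38.p6. Differences were computed as deposited, with no filter, and counted at a log2 difference of 1. No test was possible. The counting code was run on simulated data with shifts past the cut set in advance. This checks the code alone, not the counts given here. Alternatives were 3 scalings (median, quantile, and a loess trend with a span of 0.3), a filter at the array medians, another probe set rule, another log base and other member sets. The members and lists were chosen with earlier results of these data known. Genes were named by a fixed rule: all members, and from each list the 3 largest differences with 6 preset regulators. Neighbours of the members on the chromosome (Hfe and the bordering genes) and the markers above 0 were named outside it, after their values were seen. Python 3.11.15, pandas 2.3.3 and statsmodels 0.14.6 were used.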

Additional observations from a re-analysis of the deposited data

How the results depend on the processing

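The count of 4 histone genes at least 2-fold lower with IL-3 was the same under median centring, quantile normalization, loess, the mean over probe sets, natural logs, replication-dependent genes only and, chosen after seeing the data, every shared probe set added. Where both arrays had to reach their median, 9 members were left, of which 1 was 2-fold lower (H2bc8) and 4 were below 0. That filter leaves fewer genes by construction. The count 2-fold higher was 0 in each alternative. The median difference was -0.06 for the 30 genes as deposited and 0.06 with the shared sets naming only histone genes of the pattern added. Those were the 10 sets for H3, the 5 for H4 and the 2 pairs, each counted as a unit. The H2A and H2B sets were left out there, because each also names a gene outside the pattern. With every shared set added, the median difference was 0.05, so its sign depended on whether shared sets were counted. It was 0.03 over the 9 members under the filter, which removed H1f2, H3c4 and H2bc4 for their values with IL-3, so that value bears on no direction. H1f2 ranged from -2.54 to -1.76, H3c4 from -2.30 to -1.59, H2bc4 from -2.20 to -1.52 and H2bc8 from -1.94 to -1.35. Over all genes, 205 were lower and 29 higher after the loess trend was subtracted, 48 were lower under the filter, and 375 were lower and 419 higher with natural logs. The cause of the loess shift was not tested. No paired analysis was possible because each condition had 1 array and no test. With 1 array per condition and no level, the size of a difference cannot be set against biological spread.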

Other observations

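The genes that border the histone clusters differed among themselves. On chromosome 13, Zfp184, Prss16 and Trim38, which flank groups of histone genes, differed by 0.19, 0.04 and 0.04 with IL-3 minus without IL-3, and Btn2a2 by -0.06. On chromosome 3, Fcgr1, the high-affinity IgG receptor gene and the next protein-coding gene after H2bc18, differed by 1.57, and Bola1, at the other end of that cluster, by 0.84, whereas H2bc18 itself differed by 0.03. These genes were named after their values were seen, as the neighbours of the members.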
